A study of Mus musculus with 6 samples.

Results

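The genes described here are 9 mouse genes that make, break down, bind or organise hyaluronan, among the 55536 genes listed in each library. They are the synthases Has1, Has2 and Has3, the degrading proteins Cemip, Hyal1 and Hyal2, the receptor Cd44, the hyaluronan-binding protein Tnfaip6 and the proteoglycan Vcan. They were chosen by function and matched by Ensembl ID, but the group was put together with the differences between these libraries already known, above all the high Cemip and the low Vcan after treatment. Their differences between the groups are therefore given as a description, without p-values. RNA was sequenced from SVEC4-10, an immortalised mouse line labelled as endothelial and kept in medium with fetal bovine serum. The treated group (3 libraries) had nattokinase for 24 hours; this serine protease of Bacillus subtilis digests fibrin. The control group (3 libraries) was untreated. The labels state no dose, and none names a vehicle or says that replicates were separate cultures. The spread between replicates may therefore be technical.

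Hyaluronan is a long unsulfated sugar polymer of the pericellular matrix. It is made at the plasma membrane by the HAS enzymes from UDP-glucuronic acid and UDP-N-acetylglucosamine and extruded from the cell. CEMIP, also known as KIAA1199 or HYBID, binds hyaluronan and is needed for its depolymerisation in human skin fibroblasts. HYAL2, anchored at the cell surface, and HYAL1, in the lysosome, are hyaluronidases, which cut the chain. CD44 is its main cell-surface receptor. TSG-6, the product of Tnfaip6, transfers the heavy chains of inter-alpha-inhibitor onto hyaluronan. Versican, the product of Vcan, is a large chondroitin sulfate proteoglycan that binds hyaluronan through its amino-terminal domain, and in vessel walls versican and hyaluronan together form a swollen, loose matrix.

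The 250 bases upstream of the RefSeq starts of Cemip, Cd44 and Vcan (GRCm38.p6) are shown because these are the members whose transcripts passed the threshold of the whole-table test described below. Each is written 5′ to 3′ on the gene's strand, with motif matches in capitals.
Cemip, chr7:84086506-84086755, minus strand: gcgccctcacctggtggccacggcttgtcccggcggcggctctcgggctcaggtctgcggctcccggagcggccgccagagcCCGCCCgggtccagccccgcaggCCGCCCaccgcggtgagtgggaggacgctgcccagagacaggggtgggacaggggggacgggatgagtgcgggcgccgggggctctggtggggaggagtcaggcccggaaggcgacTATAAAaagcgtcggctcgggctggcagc
Cd44, chr2:102901666-102901915, minus strand: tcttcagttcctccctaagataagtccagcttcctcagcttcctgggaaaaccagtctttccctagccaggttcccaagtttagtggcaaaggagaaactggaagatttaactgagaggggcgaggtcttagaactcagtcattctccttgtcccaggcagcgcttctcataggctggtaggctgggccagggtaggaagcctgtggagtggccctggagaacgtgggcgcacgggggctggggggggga
Vcan, chr13:89742513-89742762, minus strand: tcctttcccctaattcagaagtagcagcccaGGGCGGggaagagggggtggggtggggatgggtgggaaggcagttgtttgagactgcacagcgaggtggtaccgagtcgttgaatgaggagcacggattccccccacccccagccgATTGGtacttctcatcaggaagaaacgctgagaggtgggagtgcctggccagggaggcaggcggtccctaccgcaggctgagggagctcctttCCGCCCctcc
The motifs searched on both strands were the TATA box (TATAAA), the GC box (GGGCGG), the CCAAT box (CCAAT), AP-1 (TGANTCA), TEAD (GGAATG), CRE (TGACGTCA), TCF/LEF (CTTTGA) and the CArG box bound by SRF. The Cemip window held a TATA box that began 29 bases upstream of the start and 2 GC boxes. The Vcan window held 2 GC boxes and 1 CCAAT box. No match to any of these motifs was found in the Cd44 window. Over 32851 RefSeq windows of the same length, 12.4% held the TATA box, 32.7% the GC box, 33.8% the CCAAT box, 6.75% AP-1, 12.6% TEAD, 1.55% CRE, 13.8% TCF/LEF and 1.47% the CArG box. The GC content was 75.2% in the Cemip window, 56.4% in the Cd44 window and 62.4% in the Vcan window, against a median of 52.4% over all windows. Of the 7 members with a window in the table, 5 held a GC box, 4 a CCAAT box, 2 the TEAD motif, 1 AP-1, 1 CRE, and 0 the CArG box or TCF/LEF. These matches describe the letters of the windows and say nothing of binding.

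The libraries held 17525090 to 18341370 assigned reads in nattokinase-treated cells and 15044778 to 16496433 in controls. Levels are FPKM, reads per kilobase of a gene's merged exons scaled to the assigned reads of the library. Protein-coding genes took 98.3% to 98.4% of reads in the nattokinase libraries and 95.4% to 96.7% in the controls, and the part of this share in the differences below was not tested beyond the rescaling named beside them. Control replicate 1 stood apart on the second principal component, which held 20.3% of the variance. Of 12 endothelial markers only Flt1 reached 1 FPKM in any library, and Emcn, Tie1, Cldn5 and Erg had 0 reads throughout. The summed endothelial markers ranged from 5.80 to 6.08 FPKM in nattokinase libraries and from 3.37 to 4.45 FPKM in controls. Of 8 fibroblast markers 6 reached 1 FPKM, and their sum ranged from 1849 to 1920 FPKM in nattokinase libraries and from 2067 to 2215 FPKM in controls. The 6 leukocyte markers summed to 2.102 to 2.76 FPKM in nattokinase libraries and 0.904 to 1.56 FPKM in controls, and 1 of them reached 1 FPKM. The 5 epithelial markers summed to 4.47 to 5.57 FPKM in nattokinase libraries and 4.34 to 4.81 FPKM in controls, and 2 reached 1 FPKM. The 4 lymphatic markers summed to 109.7 to 114.7 FPKM in nattokinase libraries and 125.0 to 136.3 FPKM in controls, and 2 reached 1 FPKM, the VEGF receptor gene Flt4 with 1311 to 1626 reads per library and the podoplanin gene Pdpn with 3241 to 3749. The leukocyte genes Ptprc, Itgam and Cd3e, the epithelial gene Krt5, the lymphatic genes Prox1 and Lyve1 and the fibroblast gene Thy1 were at 0 reads. The part of these markers in the results was not tested. In bulk RNA, fewer cells that express a gene and less RNA of it per cell cannot be told apart.

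Genes that reached 1 FPKM in 3 or more libraries were tested across the whole table with limma on log2(FPKM + 1), and a gene is called where its Benjamini-Hochberg adjusted p over 10913 genes was at most 0.05. Of the 9 members 6 met this filter. Cemip and Cd44 were called higher and Vcan lower after nattokinase, and Has2, Hyal2 and Tnfaip6 were not called. Over all tested genes 8.85% were called, 5.61% higher and 3.24% lower, and because the members were picked with this contrast in view nothing is read from their share. The 6 tested members had a median log2 fold change of 0.17, against 0.01 over all tested genes. In 4 of the 6, Cemip, Hyal2, Cd44 and Vcan, the 3 nattokinase libraries did not overlap the 3 controls, which held for 28.8% of all tested genes. Hyal1, Has3 and Has1 stayed below the filter.

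**Figure D1:**
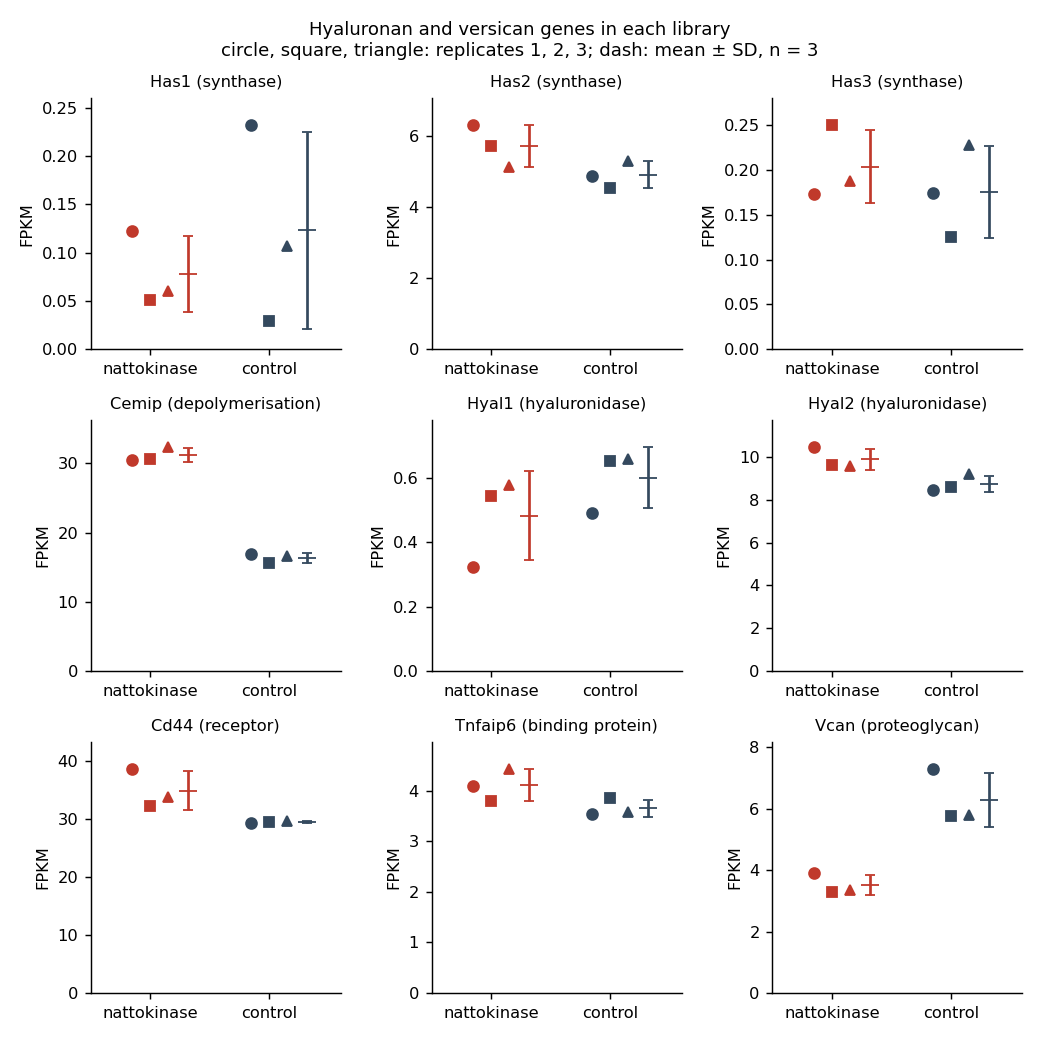
FPKM (vertical axis, from 0, one scale per gene) of the 9 genes in nattokinase and control libraries; circles, squares and triangles are replicates 1, 2 and 3, and the dash with bar is the mean ± SD of 3. Cemip lay between 30.55 and 32.4 FPKM in the nattokinase libraries and between 15.6 and 17.0 in the controls, whereas Vcan lay between 3.29 and 3.90 FPKM in the nattokinase libraries and between 5.78 and 7.30 in the controls.

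Has2 was the main synthase transcript of these cells. It had 6.31, 5.72 and 5.12 FPKM in nattokinase libraries, against 4.88, 4.55 and 5.31 FPKM in controls (chromosome 15, 56665627 to 56694539, GRCm38). The lowest treated library, replicate 3, lay below the highest control, replicate 3, so the groups overlapped. The mean was 5.72 ± 0.59 FPKM in treated cells and 4.91 ± 0.38 FPKM in controls (SD, n = 3 each), a 1.16-fold ratio, and the log2 fold change was 0.18 (SE 0.078), which did not pass the test. Has2 made up 95.0% to 95.5% of the summed FPKM of the 3 synthases in nattokinase libraries and 92.3% to 96.7% in controls. An antisense gene, Has2os, shares 182 bases or 4.30% of the Has2 exons and had 3 to 14 reads, so it could add little to this value.

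Has3 and Has1, the other synthase genes, were close to the detection limit. Has3 (chromosome 8, 106870242 to 106884566) had 20, 28 and 22 reads in nattokinase libraries and 18, 12 and 24 reads in controls, which is 0.204 ± 0.041 FPKM in treated cells and 0.176 ± 0.052 FPKM in controls (SD, n = 3 each). The groups overlapped, and the ratio of summed reads, scaled to library totals, was 1.15 with an exact binomial 95% interval of 0.794 to 1.67. For Has1 (chromosome 17, 17843323 to 17855205) the reads were 10, 4 and 5 in nattokinase libraries and 17, 2 and 8 in controls. Control replicate 1 was the highest and control replicate 2 the lowest library, and the scaled ratio was 0.623 with an interval of 0.328 to 1.16. These intervals cover counting error only, and no difference was detectable at this depth. In Has3, 352 bases (5.52% of its exons) overlap Chtf8 on the other strand, a locus with 4 to 9 reads.

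Cemip had the largest difference of the 9 genes. It reached 30.55, 30.7 and 32.4 FPKM in nattokinase libraries, against 17.0, 15.6 and 16.6 FPKM in controls (chromosome 7, 83932857 to 84086502, minus strand). Every treated library stood far above every control, and the spread within each group was small. Behind these levels were 6740, 6575 and 7265 reads in nattokinase libraries and 3366, 2862 and 3347 reads in controls. The mean level rose 1.91-fold, to 31.2 ± 1.02 FPKM in treated cells against 16.4 ± 0.74 FPKM in controls (SD, n = 3 each). Its log2 fold change was 0.89 (SE 0.050), and 0.156% of the tested genes had a higher one. After rescaling to equal protein-coding totals it was 0.86, and over all 15 alternatives it lay between 0.86 and 0.93 with the call kept in each.

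Hyal2 (chromosome 9, 107567945 to 107572779), the gene of the cell-surface hyaluronidase, lay higher by less than the test required. Its levels were 10.5, 9.62 and 9.57 FPKM in nattokinase libraries and 8.45, 8.58 and 9.19 FPKM in controls. The lowest treated library, replicate 3, was just above the highest control, also replicate 3, so the groups did not overlap but came close. The mean was 9.89 ± 0.51 FPKM in treated cells and 8.74 ± 0.39 FPKM in controls (SD, n = 3 each), with a log2 fold change of 0.16 (SE 0.058). Hyal1, the neighbouring gene of the lysosomal enzyme (107576927 to 107581710), had 0.323, 0.544 and 0.577 FPKM in nattokinase libraries and 0.490, 0.651 and 0.658 FPKM in controls. Treated replicate 1 was the lowest library, with 22 reads, and the groups overlapped; the scaled ratio of reads was 0.804 with an exact binomial 95% interval of 0.605 to 1.07. The value of Hyal1 is uncertain because 50.8% of its exon length is shared with Naa80 on the same strand, a gene with 102 to 143 reads.

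Cd44 was the most abundant of the 9 transcripts by FPKM. It had 38.6, 32.3 and 33.8 FPKM in nattokinase libraries, against 29.4, 29.5 and 29.6 FPKM in controls (chromosome 2, 102811141 to 102901665). The controls were almost equal, whereas treated replicate 1 stood above the other treated libraries. The mean was 34.9 ± 3.33 FPKM in treated cells and 29.5 ± 0.11 FPKM in controls (SD, n = 3 each), a 1.18-fold ratio with a log2 fold change of 0.23 (SE 0.063). Its rise passed the threshold narrowly and was lost in 10 of the 15 alternatives. Among these were rescaling to protein-coding totals, where the log2 fold change was 0.20, the replicate block, and leaving out any library other than treated replicate 2. Without treated replicate 1 the log2 fold change was 0.16.

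Tnfaip6, the TSG-6 gene, is short and had 114 to 139 reads in nattokinase libraries and 98 to 101 in controls (chromosome 2, 52038009 to 52056686). These gave 4.09, 3.80 and 4.43 FPKM in treated cells and 3.54, 3.85 and 3.58 FPKM in controls. Treated replicate 2 lay below control replicate 2, so the groups overlapped. The log2 fold change was 0.13 (SE 0.068) and did not pass the test.

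Vcan was the member that fell. Its levels were 3.90, 3.29 and 3.37 FPKM in nattokinase libraries, against 7.30, 5.78 and 5.79 FPKM in controls (chromosome 13, 89655312 to 89742509, minus strand). All treated libraries lay below all controls, and control replicate 1 was well above the other controls. The reads behind these levels were 1016, 835 and 893 in nattokinase libraries and 1712, 1257 and 1381 in controls. The mean was 3.52 ± 0.33 FPKM in treated cells and 6.29 ± 0.88 FPKM in controls (SD, n = 3 each), so that the treated level was 0.559 of the control level. The log2 fold change was −0.69 (SE 0.091), and 0.321% of the tested genes had a lower one. Without control replicate 1 it was −0.59, and with protein-coding totals −0.71, and the call was kept in all 15 alternatives. The annotation holds 9 Vcan transcripts, 8 of them coding, and a value per gene cannot tell these apart.

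**Figure D2:**
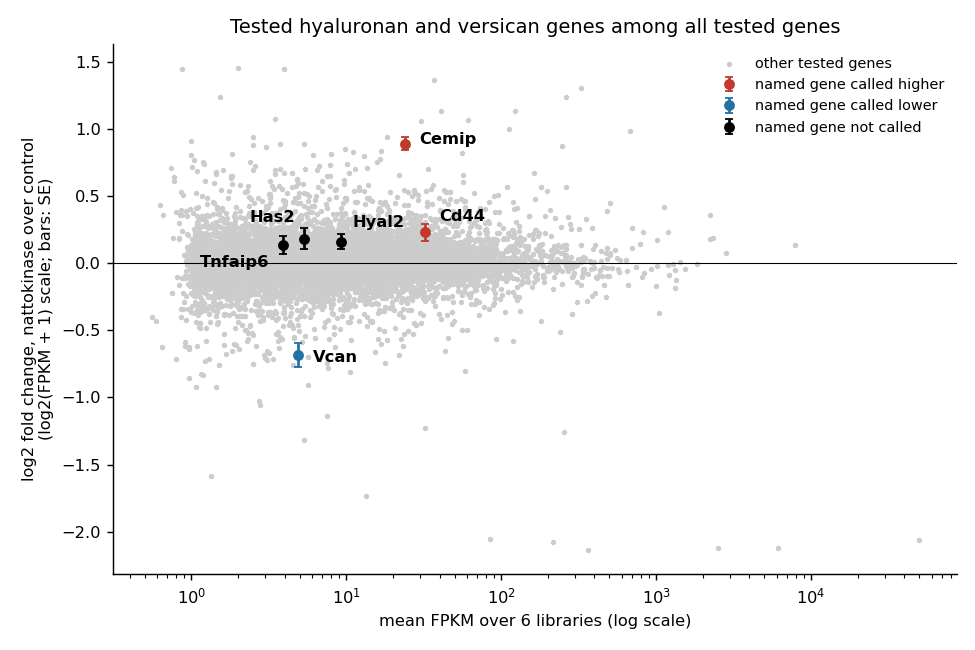
Log2 fold change of nattokinase over control on the log2(FPKM + 1) scale (vertical axis) against mean FPKM over 6 libraries (horizontal log axis) for the 10913 tested genes; bars on the 6 named genes are SE. Cemip at 0.89 lies above nearly all genes of its level and Vcan at −0.69 below nearly all of its own, while Has2, Hyal2, Cd44 and Tnfaip6 lie between 0.13 and 0.23.

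Ranked by FPKM, the order in nattokinase-treated cells was Cd44, Cemip, Hyal2, Has2, Tnfaip6, Vcan, Hyal1, Has3 and Has1. The ranges of Cd44 and Cemip overlapped there, as did those of Tnfaip6 and Vcan, and all other neighbours were separate. In controls Vcan came just after Hyal2, above Has2 and Tnfaip6, and Has3 and Has1 overlapped. The order depends on the length used, since the annotated merged exons of Cemip span 12232 bases while its only coding transcript has 7111, and which exons these cells used was not measured. Per length of the longest coding transcript, a choice made after the data were seen, the treated mean was 53.7 for Cemip and 42.1 for Cd44, and the control mean was 28.2 for Cemip and 35.6 for Cd44. On that scale Cemip came first in treated cells and Cd44 in controls.

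Ratios of levels within a library do not depend on its total. The ratio of Cemip to Has2 was 4.84, 5.36 and 6.32 in nattokinase libraries and 3.48, 3.42 and 3.12 in controls, so every treated library had more Cemip per unit of Has2. Cemip over Hyal2 averaged 3.16 ± 0.23 in treated cells and 1.88 ± 0.12 in controls (SD, n = 3 each), again without overlap. By contrast Hyal2 over Has2 was 1.74 ± 0.11 in treated cells and 1.78 ± 0.089 in controls, with overlapping libraries. The widest gap was in Cemip over Vcan, at 7.84, 9.31 and 9.62 in nattokinase libraries against 2.32, 2.69 and 2.87 in controls. These ratios rest on the same values that led to the choice of Cemip and Vcan.

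**Figure D3:**
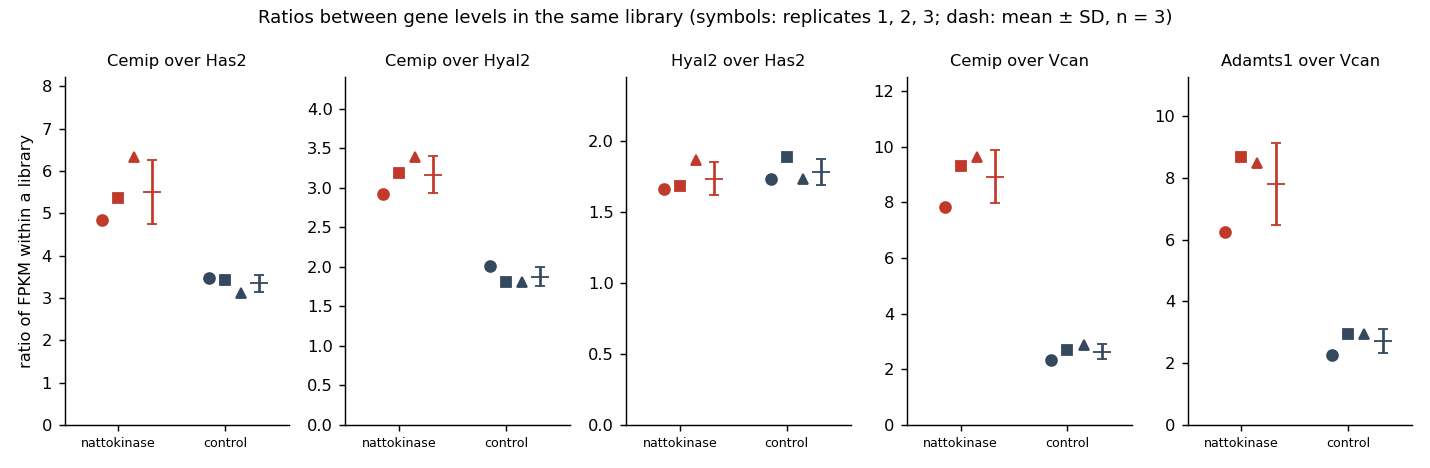
Ratio of the FPKM of 2 genes in the same library (vertical axis, from 0, one scale per ratio) for nattokinase and control libraries; symbols are replicates 1, 2 and 3 and the dash with bar is the mean ± SD of 3. Cemip over Vcan averaged 8.92 in treated cells and 2.63 in controls, whereas Hyal2 over Has2 averaged 1.74 in treated cells and 1.78 in controls.

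The expression pattern nearest to that of Cemip over the 6 libraries, by Pearson correlation of log2(FPKM + 1), belonged to Adam12 (r = 0.999), Actn1 (r = 0.997), Spp1 (r = 0.997) and Myof (r = 0.996). Adam12 encodes a metalloprotease, Actn1 an actin cross-linker, Spp1 osteopontin and Myof the membrane repair protein myoferlin. Adam12 had 6.05 ± 0.22 FPKM in treated cells and 3.58 ± 0.18 FPKM in controls, and Actn1 had 145.5 ± 2.43 FPKM in treated cells and 109.1 ± 2.50 FPKM in controls (SD, n = 3 each). Nearest to Vcan were Elovl6 (r = 0.997), Racgap1 (r = 0.994), Dcbld2 (r = 0.994) and Trabd2b (r = 0.991). Their log2 fold changes were −0.46, −0.07, −0.20 and −0.17 in that order, against −0.69 for Vcan. The correlation takes no account of the size of a change. Elovl6, a fatty acid elongase gene, had 3.80, 3.54 and 3.41 FPKM in nattokinase libraries and 5.97, 4.97 and 5.01 FPKM in controls, with the same high control replicate 1 as Vcan. The 6 libraries form 2 groups, so these correlations mostly follow the group difference and are a description only.

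Around the 9 genes, 102 others of hyaluronan, versican and CD44 biology were listed in 7 groups, of which 66 met the filter on low values. Of these, 8 were called higher and 2 lower, or 15.2% against 8.85% of all tested genes, and their median log2 fold change was 0.03 against 0.01. With limma-voom on the recovered reads 12.2% of all tested genes were called. The share of all tested genes with an unadjusted p under 0.05 was not counted. The lists were written with earlier results of these data known, so nothing is read from their shares of called genes. Nor is anything read from their counts of genes with an unadjusted p under 0.05. The adjusted p values that follow are from the limma test over all genes, and they too describe genes listed with those results known.

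Among genes that cut hyaluronan or its fragments other than the members, no difference was called. Of 10 listed, 5 were tested and 0 were called by limma, 0 had an unadjusted p under 0.05, and 0 were called by limma-voom on the recovered reads. Cemip2, also known as Tmem2, the cell-surface relative of Cemip, had 9.26, 9.32 and 9.32 FPKM in nattokinase libraries and 9.38, 9.04 and 9.18 FPKM in controls (log2 fold change 0.01, SE 0.049). The ratio of Cemip to Cemip2 was 3.35 ± 0.10 in treated cells and 1.78 ± 0.051 in controls (SD, n = 3 each). Hexa, a subunit gene of lysosomal beta-hexosaminidase, had 57.3 ± 6.16 FPKM in treated cells and 51.2 ± 1.97 FPKM in controls. It was not called, although it passed without treated replicate 1. Hyal4, Hyal5, Hyal6 and Spam1 had 0 reads throughout; such a count allows for as many as 3 reads in each library, for counting error only.

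Of 24 other genes whose products bind hyaluronan or have been tied to it, 8 were tested, with 1 higher and 1 lower. Ptx3, a pentraxin that cross-links hyaluronan with TSG-6 and the heavy chains, fell to 27.1, 27.9 and 26.4 FPKM in nattokinase libraries, against 33.6, 37.9 and 36.1 FPKM in controls (log2 fold change −0.39, SE 0.053, limma adjusted p = 0.0018). Tlr4, an innate immune receptor for which hyaluronan fragments have been described as a ligand, had 4.01, 3.73 and 3.79 FPKM in nattokinase libraries and 2.92, 2.82 and 2.95 FPKM in controls (log2 fold change 0.31, SE 0.061, limma adjusted p = 0.012). In both genes the groups did not overlap. The call of Tlr4 was lost without a filter on low values (limma adjusted p = 0.055, with 0.0029 to 0.055 over all alternatives). Hmmr, the motility receptor RHAMM, averaged 15.3 ± 1.38 FPKM in treated cells and 14.7 ± 1.29 FPKM in controls and was not called. Lyve1, the hyaluronan receptor of lymphatic endothelium, was among 7 genes of this list with 0 reads in every library, together with Acan, Ncan, Hapln1, Habp2, Itih1 and Itih5.

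Among genes that supply the sugar precursors, 1 of 14 tested was called. Gpi1, the glucose-6-phosphate isomerase that feeds the hexosamine path, fell to 48.8 ± 0.86 FPKM in treated cells, against 56.7 ± 1.79 FPKM in controls (log2 fold change −0.21, SE 0.044, limma adjusted p = 0.016). This call was lost in 6 of 15 alternatives, with adjusted p between 0.003 and 0.076. Ugdh, which makes UDP-glucuronic acid, had 20.8 ± 0.71 FPKM in treated cells and 21.8 ± 0.86 FPKM in controls, and Gfpt1, the first enzyme of the hexosamine path, had 19.3 ± 0.91 FPKM in treated cells and 18.8 ± 0.56 FPKM in controls. Neither was called.

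Proteases that cut versican were higher in 2 of 5 tested genes. Adamts1, a secreted metalloprotease that cleaves versican, rose to 24.4, 28.5 and 28.5 FPKM in nattokinase libraries, against 16.5, 16.9 and 17.1 FPKM in controls (log2 fold change 0.65, SE 0.063, limma adjusted p = 0.00032). Treated replicate 1 was the lowest of its group and still above every control. Mmp14, a membrane-anchored metalloprotease, rose to 69.6, 76.2 and 74.6 FPKM in nattokinase libraries, against 59.0, 59.0 and 60.8 FPKM in controls (log2 fold change 0.30, SE 0.048, limma adjusted p = 0.0043). The ratio of Adamts1 to Vcan was 7.79 ± 1.34 in treated cells and 2.71 ± 0.39 in controls (SD, n = 3 each). Adamts5 had 10.4 ± 0.61 FPKM in treated cells and 10.5 ± 0.77 FPKM in controls and was not called, nor was Adamts9, with 3.01 ± 0.29 FPKM in treated cells and 2.67 ± 0.23 FPKM in controls. Adamts4, below the filter, had 0.936 ± 0.10 FPKM in treated cells and 0.707 ± 0.078 FPKM in controls. Adamts20, also below it, had 0.904 ± 0.13 FPKM in treated cells and 0.485 ± 0.038 FPKM in controls. In both of the last genes the treated libraries lay above the controls, which was not tested.

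The enzymes that build the chondroitin sulfate chains of versican gave 0 calls by limma among 16 tested genes. Of these 2 had an unadjusted p under 0.05, and limma-voom on the recovered reads called 1, B3gat3, which adds the last sugar of the linkage region, at 12.8 ± 0.28 FPKM in treated cells and 10.7 ± 1.04 FPKM in controls (SD, n = 3 each). The limma adjusted p of B3gat3 was 0.051. With other settings limma also called 1 gene of this list, both with the filter at a mean of at least 2 FPKM and without control replicate 2. The genes with the highest level were Chst12, a sulfotransferase, with 31.8 ± 1.45 FPKM in treated cells and 31.2 ± 0.62 FPKM in controls, and Dse, the epimerase that makes dermatan sulfate, with 25.5 ± 0.61 FPKM in treated cells and 24.4 ± 0.94 FPKM in controls.

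Among genes tied to CD44 as ligands, sheddases, cytoskeletal or signalling partners or splicing regulators of its transcript, 4 of 12 tested were higher and 0 lower. Of these 12, 7 had an unadjusted limma p under 0.05, and limma-voom on the recovered reads called 5 higher and 1 lower. Over all tested genes limma called 5.61% higher and 3.24% lower, and limma-voom called 12.2% in either direction. The share of all tested genes under that unadjusted p was not counted, so nothing is read from the 7. Spp1, which encodes the CD44 and integrin ligand osteopontin, rose to 172, 169.5 and 169.8 FPKM in nattokinase libraries, against 77.9, 73.6 and 79.5 FPKM in controls (log2 fold change 1.14, SE 0.046, limma adjusted p = 1.1e-06). Msn, the moesin gene, whose product links CD44 to actin, had 161.4 ± 5.35 FPKM in treated cells and 139.7 ± 2.1 FPKM in controls (log2 fold change 0.21, limma adjusted p = 0.022). Adam17, a sheddase, had 13.4 ± 0.26 FPKM in treated cells and 11.7 ± 0.083 FPKM in controls (log2 fold change 0.18, limma adjusted p = 0.039). Mmp14, which also sheds CD44, completes the called genes. The calls of Msn and Adam17 were lost in 7 and 9 of 15 alternatives, with adjusted p up to 0.091 and 0.14, and Adam17 shares 4.35% of its exon length with Iah1 on the other strand. Ezr, the ezrin gene, had 393 ± 11.9 FPKM in treated cells and 421 ± 7.06 FPKM in controls, and Rdx, the radixin gene, had 43.6 ± 1.57 FPKM in treated cells and 42.2 ± 2.23 FPKM in controls, and neither was called. Iqgap1, also of this list, had 47.3 ± 0.32 FPKM in treated cells and 42.3 ± 1.40 FPKM in controls. It narrowly missed the threshold (log2 fold change 0.16, limma adjusted p = 0.051). Esrp2, a splicing regulator of the CD44 transcript, had 1.39 ± 0.20 FPKM in treated cells and 1.96 ± 0.14 FPKM in controls (log2 fold change −0.31, limma adjusted p = 0.061) and was not called, except with limma-voom (adjusted p = 0.024) and with protein-coding totals (limma adjusted p = 0.045), with a range of 0.024 to 0.2 over the alternatives. Of its exon length 5.05% is shared with Nfatc3 on the other strand, which had 2317 to 2910 reads.

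Among proteins that join versican in the matrix or at the cell surface, 2 of 8 tested were higher. Of these 8, 5 had an unadjusted limma p under 0.05, and limma-voom on the recovered reads called 3 higher and 1 lower. Over all tested genes limma called 5.61% higher and limma-voom called 12.2% in either direction, and the share under that unadjusted p was not counted. The median log2 fold change of the 8 was −0.04, against 0.01 over all tested genes. Tnc, the tenascin-C gene, whose product binds the lectin domain of versican, rose to 38.6, 44.7 and 47.7 FPKM in nattokinase libraries, against 30.5, 27.7 and 28.1 FPKM in controls (log2 fold change 0.58, SE 0.075, limma adjusted p = 0.0016). Itgb1, the integrin beta-1 gene, rose to 309 ± 7.91 FPKM in treated cells, against 258 ± 8.48 FPKM in controls (log2 fold change 0.26, SE 0.049, limma adjusted p = 0.01). Its call was lost with the replicate block and without treated replicate 2 or control replicate 2 (limma adjusted p up to 0.057). Fbn1, the fibrillin-1 gene, had 41.5 ± 1.20 FPKM in treated cells and 46.2 ± 2.76 FPKM in controls. Fbln2, the fibulin-2 gene, had 319 ± 13.4 FPKM in treated cells and 343 ± 9.11 FPKM in controls, and neither was called. Fn1, the fibronectin gene, had 762 ± 49.9 FPKM in treated cells and 636 ± 55.7 FPKM in controls. It was not called either (log2 fold change 0.26, limma adjusted p = 0.058).

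**Figure D4:**
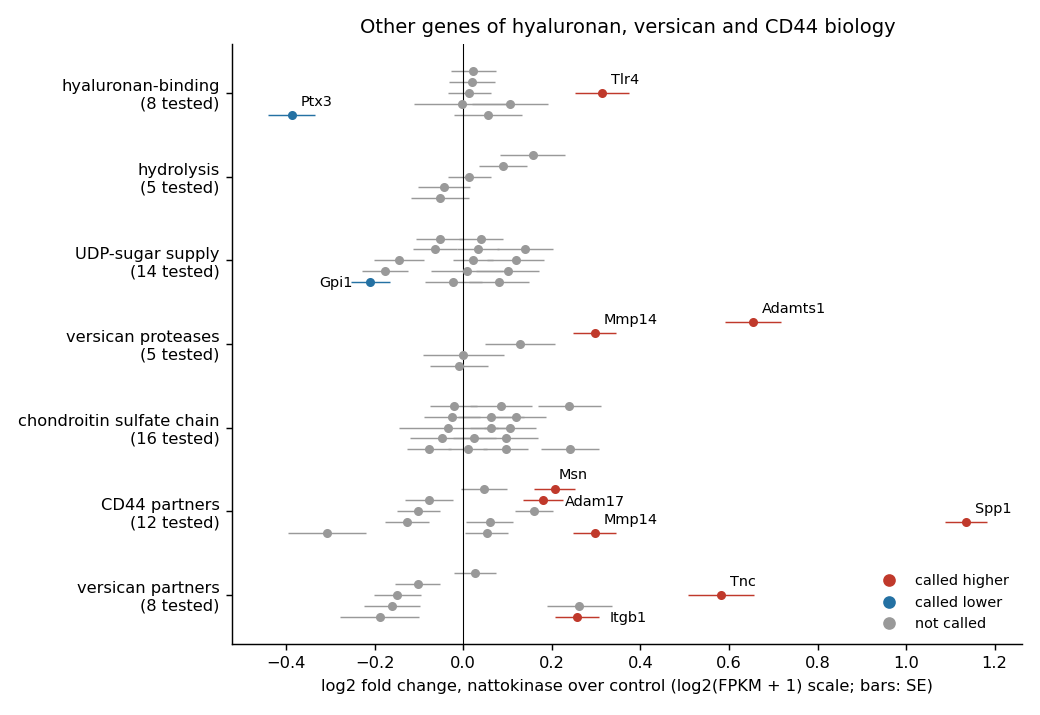
Log2 fold change of nattokinase over control (horizontal axis, log2(FPKM + 1) scale, bars SE) of each tested gene in 7 lists, 1 list per row, with called genes coloured and named. Adamts1 at 0.65, Tnc at 0.58 and Spp1 at 1.14 lie far to the right, Ptx3 at −0.39 to the left, and the hydrolysis and chondroitin sulfate lists hold no called gene.

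**Figure D5:**
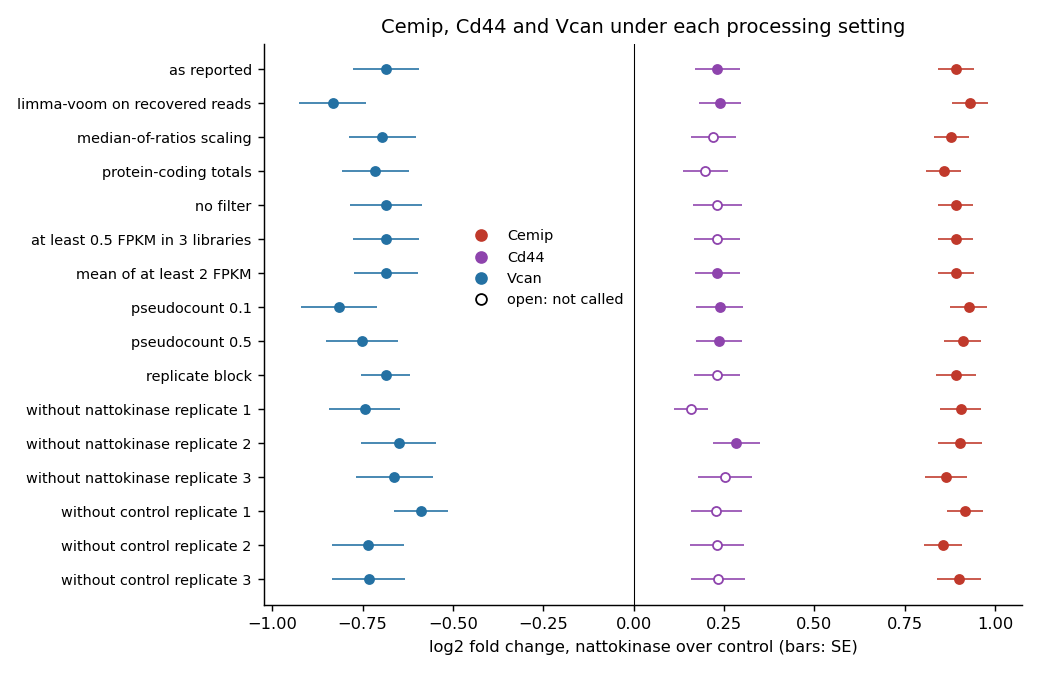
Log2 fold change of nattokinase over control (horizontal axis, bars SE) of Cemip, Cd44 and Vcan as reported and under 15 processing alternatives, 1 per row; filled points passed the adjusted threshold and open points did not. Cemip stays between 0.86 and 0.93 and Vcan between −0.83 and −0.59 with all points filled, whereas 10 of the 15 alternative points of Cd44 are open.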

How the data were processed

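RNA was sequenced from 3 nattokinase-treated and 3 untreated SVEC4-10 samples, grouped and numbered by their titles. Per the submitters' processing notes, the tools included HISAT2 2.1.0 and featureCounts 1.6.0, and the build was GRCh38, which is human although the gene identifiers are those of mouse. The authors deposited 1 value per gene, whose unit, found from the values, is FPKM. Every one of the 55536 identifiers is in GENCODE M21 (GRCm38). A value multiplied by its gene's merged exon length was within 0.05 of a whole number of reads for 100% of values above 0. Whether strand was used in counting is not stated in the labels.

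Values were analysed as log2(FPKM + 1) with limma 3.58.1 in R 4.3.3 (trend and robust prior, two-sided, Benjamini-Hochberg over 10913 genes that reached 1 FPKM in 3 or more libraries, threshold 0.05). Changes of low genes are understated on this scale. Folds are ratios of mean FPKM. Replicates correlated at 0.992 to 0.995. Upstream sequences are from RefSeq (GRCm38.p6), and 7 of 9 members matched. The members and lists were chosen with earlier results of these data known. From each list the called genes are named, or the 2 with the highest level where none was called, and 1 gene that this rule names is not reported here. Other list genes (Cemip2, Hmmr, Ugdh, Gfpt1, B3gat3, Adamts4, Adamts5, Adamts9, Adamts20, Ezr, Rdx, Iqgap1, Esrp2, Fbn1, Fbln2, Fn1 and those at 0 reads) were named after their values were seen. Alternatives were limma-voom on recovered reads, other scalings, filters and pseudocounts, a replicate block, and each library left out.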

Additional observations from a re-analysis of the deposited data

How the results depend on the processing

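Cemip, Vcan, Has2, Hyal2 and Tnfaip6 kept their direction and their side of the threshold in all 15 alternatives. Cd44 lost its call with median-of-ratios scaling (log2 fold change 0.22), with protein-coding totals (0.20), with no filter (0.23), with the filter at 0.5 FPKM (0.23) and with the replicate block (0.23), and over the left-out libraries it ranged from 0.16 to 0.28, called only without nattokinase replicate 2. The number of members called higher was thus 1 in each of those 5 settings and 1 to 2 over the left-out libraries. Same-numbered libraries did not deviate together (correlations of −0.089, −0.044 and −0.059 for numbers 1, 2 and 3). With 3 libraries per group a weak shared effect could be missed, so whether the numbers pair the samples is not settled.

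Over all genes 612 were called higher and 354 lower, 872 and 462 with limma-voom, 439 and 249 with the replicate block, and 221 and 109 with no filter. Leaving out 1 library gave 330 to 726 higher and 193 to 481 lower, the lowest counts being 330 and 198 without nattokinase replicate 2, 342 and 197 without nattokinase replicate 3, 362 and 193 without control replicate 2, and 415 and 209 without control replicate 3. With protein-coding totals the counts were 478 and 497, which puts the share of higher calls at 49.0%, compared with 63.4% as reported. Of the list genes 8 were called higher, 5 with no filter, 5 with the replicate block and 5 to 10 over the left-out libraries. Called lower were 2, against 5 with limma-voom, 4 with protein-coding totals, 1 with no filter, 1 with the replicate block and 1 to 3 over the left-out libraries. Chst12 changed sign with protein-coding totals (−0.0089). The causes were not tested. Without a filter the log2 fold changes of the low genes were −0.06 for Has1, 0.03 for Has3 and −0.11 for Hyal1. Depth limits Has1, Has3 and Hyal1, which had 2 to 41 reads per library.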
